A study of Mus musculus with 30 samples.

Results

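A set of 10 genes that restrain MAP kinase signalling was followed across IL-10 producing and non-producing helper T cells: the dual-specificity phosphatase genes Dusp1, Dusp2, Dusp4, Dusp5, Dusp6 and Dusp10, the Sprouty genes Spry1 and Spry2, and the Spred genes Spred1 and Spred2. They were taken by gene symbol, as 10 of the 23420 genes listed in every table, and all 10 were among the 12611 genes that passed the filter on low counts. Naive CD4 T cells were sorted from C57BL/6 mice that all carried a Foxp3-GFP reporter and an IL-10 reporter that puts Thy1.1 on the cell surface, and 30 RNA-seq libraries were made from their progeny. The cells were stimulated for 72 h with 2.5 ug/ml soluble anti-CD3 and 6 irradiated feeder splenocytes per T cell, and sorted by the IL-10 reporter into positive and negative compartments, 3 libraries in each of 10 groups and 2000 cells per library.

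The 5 cultures differed in their cytokines. Th1 cells received 20 ng/ml IL-12, Th2 cells 20 ng/ml IL-4, and Tr1 cells 25 ng/ml IL-27. Th17 cells of the non-pathogenic kind received 2 ng/ml TGF-beta 1 with 25 ng/ml IL-6, and pathogenic Th17 cells, written pTh17, received 20 ng/ml IL-1 beta, 25 ng/ml IL-6 and 20 ng/ml IL-23. All groups shared the reporters, the anti-CD3 and the feeder cells, and GFP positive cells were gated out of every group. The sort reads Thy1.1 on the cell surface at that time and not IL-10 itself. A negative cell may have made IL-10 earlier or later, and a positive cell may have made it only before the sort. The labels do not say whether replicates were separate cultures or animals, so the tests weigh each difference against a spread that could be technical alone.

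As background, the T cell receptor activates Ras, which starts the RAF, MEK and ERK kinase cascade, and ERK in turn switches on early genes such as Fos and several of its own inhibitors. Dual-specificity phosphatases remove the activating phosphates from MAP kinases: DUSP1, DUSP2, DUSP4 and DUSP5 act in the nucleus, DUSP6 acts on ERK in the cytoplasm, and DUSP10 acts mainly on the stress kinases p38 and JNK rather than on ERK. Sprouty and Spred proteins act upstream, on the step from receptors and Ras to RAF.

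Promoter sequence is shown for Dusp1, Dusp2 and Dusp5, the genes whose first 150 bases upstream of the RefSeq start held a complete match to a cyclic AMP response element (CRE), an EGR site or a CArG box, the binding sequences of CREB, EGR and serum response factor. Each is given 5' to 3' on the gene's own strand, with matches in capitals. The windows are chr17:26508473-26508622 on the minus strand, chr2:127336009-127336158 on the plus strand and chr19:53528995-53529144 on the plus strand (RefSeq, GRCm38.p6).
Dusp1: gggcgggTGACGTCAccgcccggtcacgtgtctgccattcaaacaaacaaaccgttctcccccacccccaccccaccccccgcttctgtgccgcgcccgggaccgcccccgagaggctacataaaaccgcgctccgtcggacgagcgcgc
Dusp2: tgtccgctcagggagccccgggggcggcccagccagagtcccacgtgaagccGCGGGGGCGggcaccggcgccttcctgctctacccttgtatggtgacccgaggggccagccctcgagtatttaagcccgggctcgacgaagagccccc
Dusp5: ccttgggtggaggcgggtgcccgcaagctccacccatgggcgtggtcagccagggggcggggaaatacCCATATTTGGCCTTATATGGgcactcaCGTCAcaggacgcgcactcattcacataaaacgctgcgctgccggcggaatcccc

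In Dusp1 the capitals mark the CRE, TGACGTCA, at -143 to -136 from the start. In Dusp5 they mark 2 adjoining CArG boxes, CCATATTTGG at -82 to -73 and CCTTATATGG at -72 to -63, and the short CRE core CGTCA, the reverse complement of TGACG, at -55 to -51. In Dusp2 they mark GCGGGGGCG at -98 to -90, a match to the EGR sequence GCGNGGGCG. The search covered both strands of the 250 bases upstream of the start in the 9 of 10 genes with a RefSeq promoter entry, and in 32851 promoters of all genes. TGACGTCA was in 1.55% of all promoters, the CArG box in 1.47%, GCGNGGGCG in 4.70%, and TGACG, which lies inside TGACGTCA and was found in Dusp1, Dusp5 and Spred2, in 17.8%. No match in these windows was found for the AP-1 sequence TGANTCA (6.75% of all promoters), the ETS sequence CCGGAAG (6.91%) or the STAT sequence TTCNNNGAA (7.02%). These matches describe the letters in a window and are no evidence of binding.

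Total expected counts per library, RSEM's estimate of the reads of each gene, ran from 4394704 to 11850597. All 8 CD4 T cell marker genes were detected in every group, with Cd3e between 410 and 823 TPM (a level scaled for gene length and depth). Levels below are TPM per library. Differences are log2 fold changes ± SE from edgeR's quasi-likelihood test on the counts, with p-values adjusted by Benjamini-Hochberg over the 12611 genes tested, and a difference was called at an adjusted p below 0.05. In these bulk libraries, fewer cells that express a gene and less RNA in each cell cannot be told apart.

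Dusp1 was the most abundant of the 10 genes on average, at 168 TPM over the 30 libraries, followed by Dusp2 at 69.5, Dusp6 at 45.9 and Dusp10 at 32.3 TPM. Dusp4 averaged 12.1, Spry1 10.4, Dusp5 9.09 and Spred2 4.67 TPM, while Spred1 at 1.23 and Spry2 at 0.904 TPM were near the limit of detection. Dusp1, Dusp2, Dusp6 and Dusp10 together made up 73.5% to 95.5% of the summed TPM of the 10 genes in a library.

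The summed level of the 10 genes was highest in Tr1 IL-10 negative cells, 490 ± 28.9 TPM (SD, n = 3), and lowest in Th17 IL-10 positive cells, 188 ± 17.8 TPM. Its make-up differed between cultures. Dusp1 supplied 69.1% of the sum in Tr1 IL-10 negative cells and 29.1% in Th2 IL-10 negative cells, where Dusp10 supplied 27.6% and Dusp6 19.2%. Dusp2 supplied 37.9% in pTh17 IL-10 positive cells, and Dusp4 13.9% in Th17 IL-10 positive cells.

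**Figure D1:**
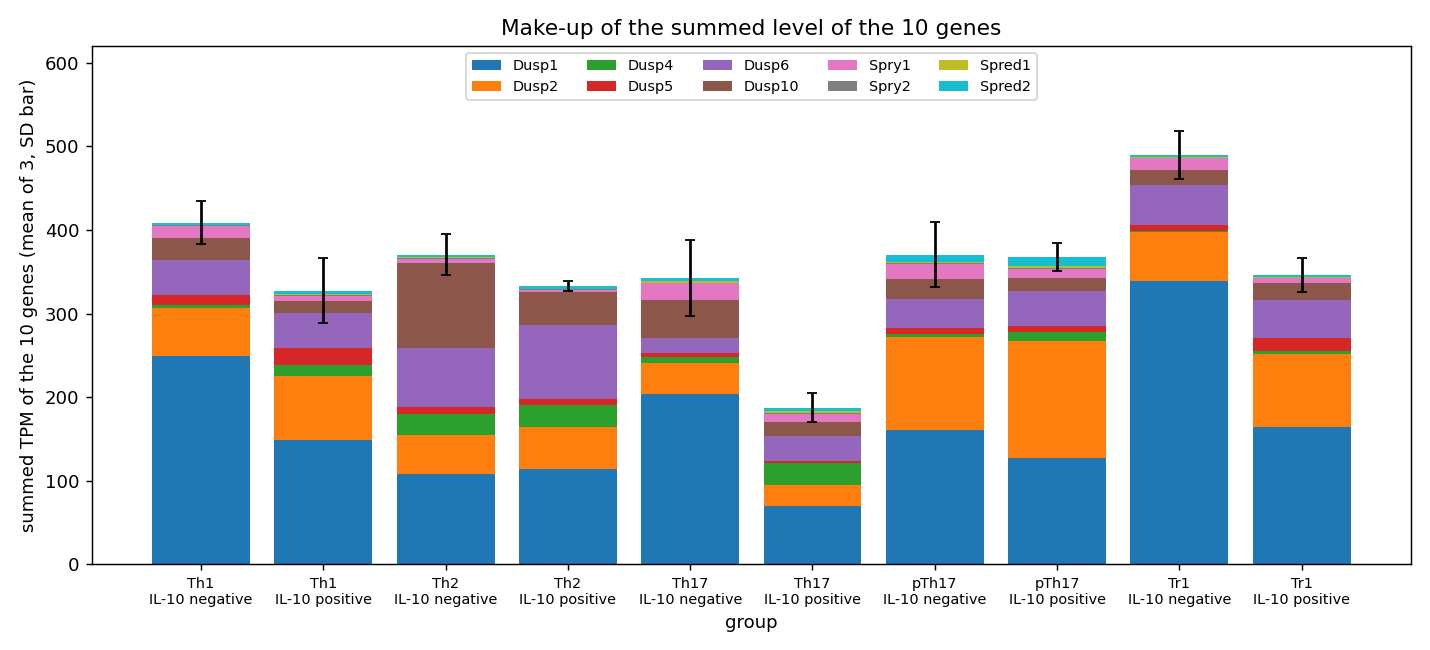
Stacked bars give the mean TPM of each of the 10 genes (colours) in each of the 10 groups, and the black bar is the SD of the summed TPM over 3 libraries. The tallest stack is Tr1 IL-10 negative at 490 TPM, most of it Dusp1, and the shortest is Th17 IL-10 positive at 188 TPM.

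Among the 5 comparisons of IL-10 positive with IL-10 negative cells, 22 of the 50 gene and culture pairs were called, 9 higher and 13 lower in IL-10 positive cells. In Th1 cells 6 of the 10 genes were called, 3 higher and 3 lower, where 43.8% of all tested genes were called (23.5% higher, 20.4% lower). Th17 cells had 5 called, 2 higher and 3 lower, where 58.2% of all genes were called (29.2% higher, 28.9% lower). Th2 cells had 3, 1 higher and 2 lower, beside 21.8% of all genes (12.3% and 9.49%). pTh17 cells had 4, 1 higher and 3 lower, beside 18.5% (10.1% and 8.33%), and Tr1 cells had 4, 2 higher and 2 lower, beside 34.7% (20.5% and 14.2%). The libraries of both compartments did not overlap in TPM for 6 of the 10 genes in Th1 (50.9% of all genes), 3 in Th2 (39.1%), 5 in Th17 (63.6%), 5 in pTh17 (32.9%) and 4 in Tr1 (40.9%). With 10 genes these shares are coarse, and none is read as particular to them. The genes moved in opposite directions: Dusp1, Dusp10 and Spry1 had all 13 lower calls, and Dusp4, Dusp5, Dusp6 and Spred2 the 9 higher ones. The median log2 difference of the 10 genes in the mean over the 5 cultures was 0.25, beside -0.00 over all genes tested.

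**Figure D2:**
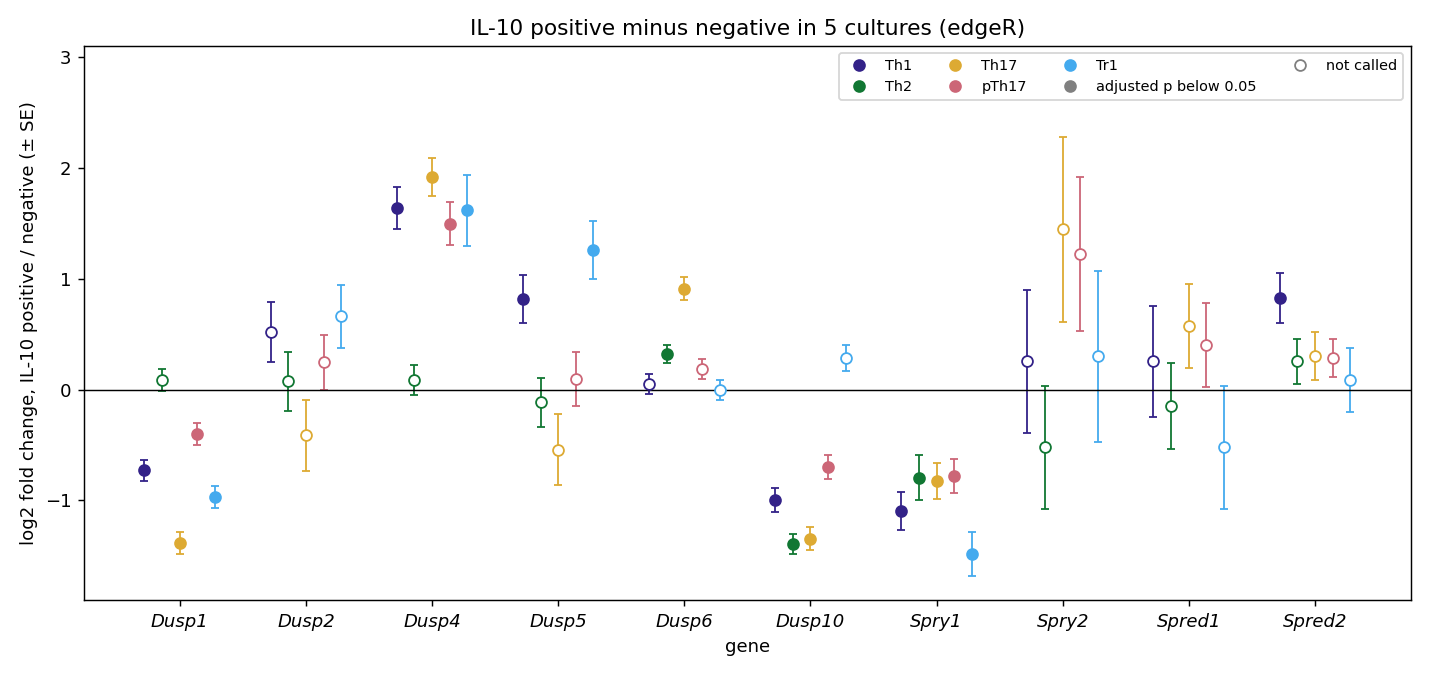
Points give the log2 fold change of IL-10 positive over negative cells for each gene (x axis) and culture (colour), with SE bars, and filled points are called by edgeR. Spry1 lies below 0 in all 5 cultures, Dusp1 in 4 and Dusp10 in 4, while Dusp4 is raised in 4 cultures and lies at 0.09 in Th2.

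Dusp1, the inducible nuclear phosphatase of p38, JNK and ERK, was lower in IL-10 positive cells of 4 cultures and did not differ detectably in Th2. In Th1 cells the IL-10 negative libraries held 264, 258 and 226 TPM and the positive ones 154, 148 and 139 TPM. In Th17 cells the negative libraries held 179, 194 and 239 TPM and the positive ones 61.6, 66.0 and 83.65 TPM. The 2 compartments did not overlap in either culture, and the Th17 difference, -1.39 ± 0.10 (edgeR adjusted p = 9.03e-15), was the largest of the 5.

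In Tr1 cells Dusp1 stood at 321, 336 and 358 TPM in negative libraries and 163, 159.7 and 170.2 TPM in positive ones. In pTh17 cells the values were 160.2, 165 and 154 TPM against 141, 121 and 119 TPM. The compartments were again apart, with log2 differences of -0.97 ± 0.10 in Tr1 (edgeR adjusted p = 2.65e-10), -0.73 ± 0.10 in Th1 (5.16e-08) and -0.40 ± 0.10 in pTh17 (0.00239). Th2 cells held 108, 104 and 110.05 TPM in negative libraries and 128, 106 and 109 TPM in positive ones. These values overlapped, and the difference was 0.09 ± 0.10 (edgeR adjusted p = 0.591).

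The difference in Dusp1 depended on the culture (edgeR test of equality over the 5 cultures, adjusted p = 1.72e-10, where 60.7% of all genes were called). Against the mean of the other 4 cultures it stood at 0.96 ± 0.11 in Th2 (edgeR adjusted p = 4.99e-09, where 20.7% of all genes were called) and at -0.88 ± 0.11 in Th17 (2.16e-08, where 46.5% were called), a contrast added after the data had been seen. The same contrast was called for Dusp1 in pTh17 (0.35, edgeR adjusted p = 0.0151) and Tr1 (-0.36, 0.0139). The first call was lost without pTh17 IL-10 positive replicate 13 (0.142), the second without Tr1 IL-10 negative replicate 18 (0.0930). Calls that were lower in at least 4 of the 5 cultures, as for Dusp1, were made for 4.42% of all genes tested. Ranked by mean TPM, Tr1 IL-10 negative cells were highest and no other group reached their lowest library. Th1 and Th17 IL-10 negative cells came next and overlapped each other. Below them lay Tr1 IL-10 positive with pTh17 IL-10 negative cells, and then Th1 IL-10 positive, pTh17 IL-10 positive and the 2 Th2 groups, each overlapping the next. Th17 IL-10 positive cells stood below every library of the other groups. In TMM-scaled CPM the Th17 IL-10 negative group ranked 5, below Tr1 IL-10 positive and pTh17 IL-10 negative cells, and not 3 as in TPM.

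Fos, an early gene that ERK signalling switches on and that is in the fixed list of 16 ERK-responsive early genes, was called lower in the same 4 cultures as Dusp1. Its IL-10 negative libraries held 237 to 279 TPM in Th1, 174 to 222 in Th17, 171 to 179 in pTh17 and 221 to 253 in Tr1. The positive ones held 120 to 145, 61.2 to 91.4, 86.2 to 123 and 103 to 127 TPM in the same order. None of these pairs overlapped, whereas the Th2 compartments did, at 86.5 to 112 and 80.3 to 109.9 TPM. The log2 differences in Fos were -0.96 ± 0.13 in Th1 (edgeR adjusted p = 4.96e-08), -1.28 ± 0.13 in Th17 (9.62e-11), -0.81 ± 0.13 in pTh17 (6.93e-06) and -0.99 ± 0.13 in Tr1 (1.21e-07). In Th2 the difference was -0.04 ± 0.13 (0.883).

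Across the 10 group means of log2 CPM, Dusp1 and Fos had a Pearson r of 0.94. Among replicate libraries, after each group's mean was removed, their r was 0.75 over 30 libraries. Fos had the highest such r with Dusp1 in a search of genes with a mean of at least 5 CPM. The value is therefore also the top of a search in these data. Over the 10 group means, Dusp1 had an r of only 0.40 with Junb, another of the listed early genes. With Rasgrp1, of the ERK cascade, its r was 0.37. Dusp1 and Dusp4 had an r of -0.82 over the 10 groups. The points share libraries and cultures, and these coefficients describe them without a test. By the rule fixed for likeness, the 2 genes closest to Dusp1 over the 10 groups were B3gntl1 (r = 0.96) and Parp4 (r = 0.95).

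Of the 16 early genes, 10 were called in Th1 IL-10 positive cells (2 higher, 8 lower), beside 43.8% of all genes tested. In Th2 there were 8 (5 and 3) beside 21.8%, in Th17 9 (3 and 6) beside 58.2%, in pTh17 4 (1 and 3) beside 18.5%, and in Tr1 7 (3 and 4) beside 34.7%. Their median log2 difference over the 5 cultures together was -0.15, beside -0.00 for all genes tested, with 2 of 16 called higher and 9 lower, where 29.6% of all genes were called higher and 28.2% lower. The 3 most abundant were Junb, an AP-1 subunit, at -0.18 ± 0.03 in the mean over cultures (edgeR adjusted p = 2.63e-07), Fos at -0.82 ± 0.06 (3.07e-15), and Ier2 at -0.16 ± 0.07 (0.0375). The call for Ier2 was lost with DESeq2 (adjusted p = 0.115), with median-of-ratios size factors (0.0633) and in 15 of the 30 fits that each left out 1 library (up to 0.116), with libraries of all 5 cultures among these 15.

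Dusp10, which acts mainly on p38 and JNK, was lower in IL-10 positive cells of 4 cultures, with Tr1 as the exception. Th2 IL-10 negative libraries held 102, 105 and 99.05 TPM and positive ones 40.04, 37.98 and 38.9 TPM. Th17 negative libraries held 43.9, 42.9 and 52.1 TPM and positive ones 13.9, 18.2 and 17.2 TPM. Both cultures were split without overlap, by -1.39 ± 0.09 in Th2 (edgeR adjusted p = 2.39e-15) and -1.35 ± 0.10 in Th17 (4.94e-14).

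In Th1 cells Dusp10 was at 24.7, 28.8 and 28.6 TPM in negative and 12.95, 13.2 and 14.2 TPM in positive libraries. In pTh17 cells it was at 24.5, 26.2 and 21.9 against 15.6, 16.4 and 14.85 TPM. Neither pair overlapped, at -0.998 ± 0.11 (edgeR adjusted p = 1.03e-09) and -0.70 ± 0.11 (4.97e-06). In Tr1 cells the negative libraries held 16, 17.9 and 19.9 TPM and the positive ones 20.45, 18.2 and 24.2 TPM, which overlapped. The Tr1 difference was 0.29 ± 0.12 and was not called (edgeR adjusted p = 0.0638). It was called by DESeq2 (0.0443), with median-of-ratios size factors (0.0442), and without Tr1 IL-10 negative replicate 18 (0.0129) or positive replicate 17 (0.0257).

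The difference in Dusp10 depended on the culture (edgeR adjusted p = 3.18e-11 for equality). Relative to the mean of the other 4 cultures, Tr1 stood 1.40 ± 0.13 higher (edgeR adjusted p = 1.20e-10, where 22.2% of all genes were called), Th2 at -0.70 ± 0.10 (1.97e-06) and Th17 at -0.65 ± 0.12 (1.77e-05). In rank by TPM the Th2 IL-10 negative group was far above the rest, followed by Th17 IL-10 negative and Th2 IL-10 positive cells, each clear of the next. The other 7 groups lay between 12.95 and 28.8 TPM, and all neighbours except the last pair overlapped, with Th1 IL-10 positive cells lowest in TPM and Th17 IL-10 positive cells lowest in TMM-scaled CPM. The nearest genes over the 10 groups were Tbc1d10a (r = 0.87) and Csk (r = 0.87), the kinase that holds Src family kinases inactive.

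Spry1, which restrains Ras-ERK signalling downstream of receptors, was the 1 gene of the 10 called in all 5 cultures, each time lower in IL-10 positive cells. Of all genes tested, 1.39% were called lower in all 5. Th1 negative libraries held 11.3, 16.1 and 13.8 TPM and positive ones 7.27, 5.88 and 5.87 TPM. Tr1 negative libraries held 10.9, 18.8 and 13.1 TPM and positive ones 6.06, 4.45 and 4.1 TPM. In neither culture did the highest positive library reach the lowest negative one, and the log2 differences were -1.09 ± 0.17 (edgeR adjusted p = 1.44e-06) and -1.48 ± 0.20 (1.96e-07).

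Th17 libraries held 18.57, 18.59 and 21.4 TPM when IL-10 negative and 8.0, 10.1 and 11.8 TPM when positive. pTh17 libraries held 17.95, 18.4 and 17.7 TPM when negative and 10.8, 11.3 and 10.9 TPM when positive. The compartments were apart, by -0.83 ± 0.16 (edgeR adjusted p = 2.77e-05) and -0.78 ± 0.15 (2.18e-04). Th2 cells had the lowest levels, 4.24, 4.36 and 3.76 TPM in negative and 2.65, 1.61 and 2.89 TPM in positive libraries, also without overlap. The Th2 difference was -0.80 ± 0.20 (edgeR adjusted p = 0.00316), and it was not called without Th2 IL-10 positive replicate 8 (-0.58, adjusted p = 0.0523).

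The 5 Spry1 differences were not shown to depend on the culture (edgeR test of equality, adjusted p = 0.0955). That test did pass the threshold without Th2 IL-10 positive replicate 8 (0.0368) or without Tr1 IL-10 negative replicate 16 (0.0284). In the contrast added after the data had been seen, the Tr1 difference stood at -0.61 ± 0.22 against the mean of the other 4 cultures and was called (edgeR adjusted p = 0.0457, where 22.2% of all genes were called). That call was lost under a replicate block (0.0746), with median-of-ratios size factors (0.0502) and in 11 of the 30 fits that each left out 1 library. Over the 30 the adjusted p ran from 0.0132 to 0.197, the highest without Tr1 IL-10 negative replicate 17. The mean of the 5 differences was -0.996 ± 0.08 (edgeR adjusted p = 1.29e-13). The 4 IL-10 negative groups other than Th2 were highest, led by Th17 in TPM and by pTh17 in TMM-scaled CPM, and the 2 Th2 groups were lowest, though Th2 negative and Tr1 positive libraries overlapped. The nearest genes over the 10 groups were Cluap1 (r = 0.94) and Per1 (r = 0.94), a circadian regulator.

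**Figure D3:**
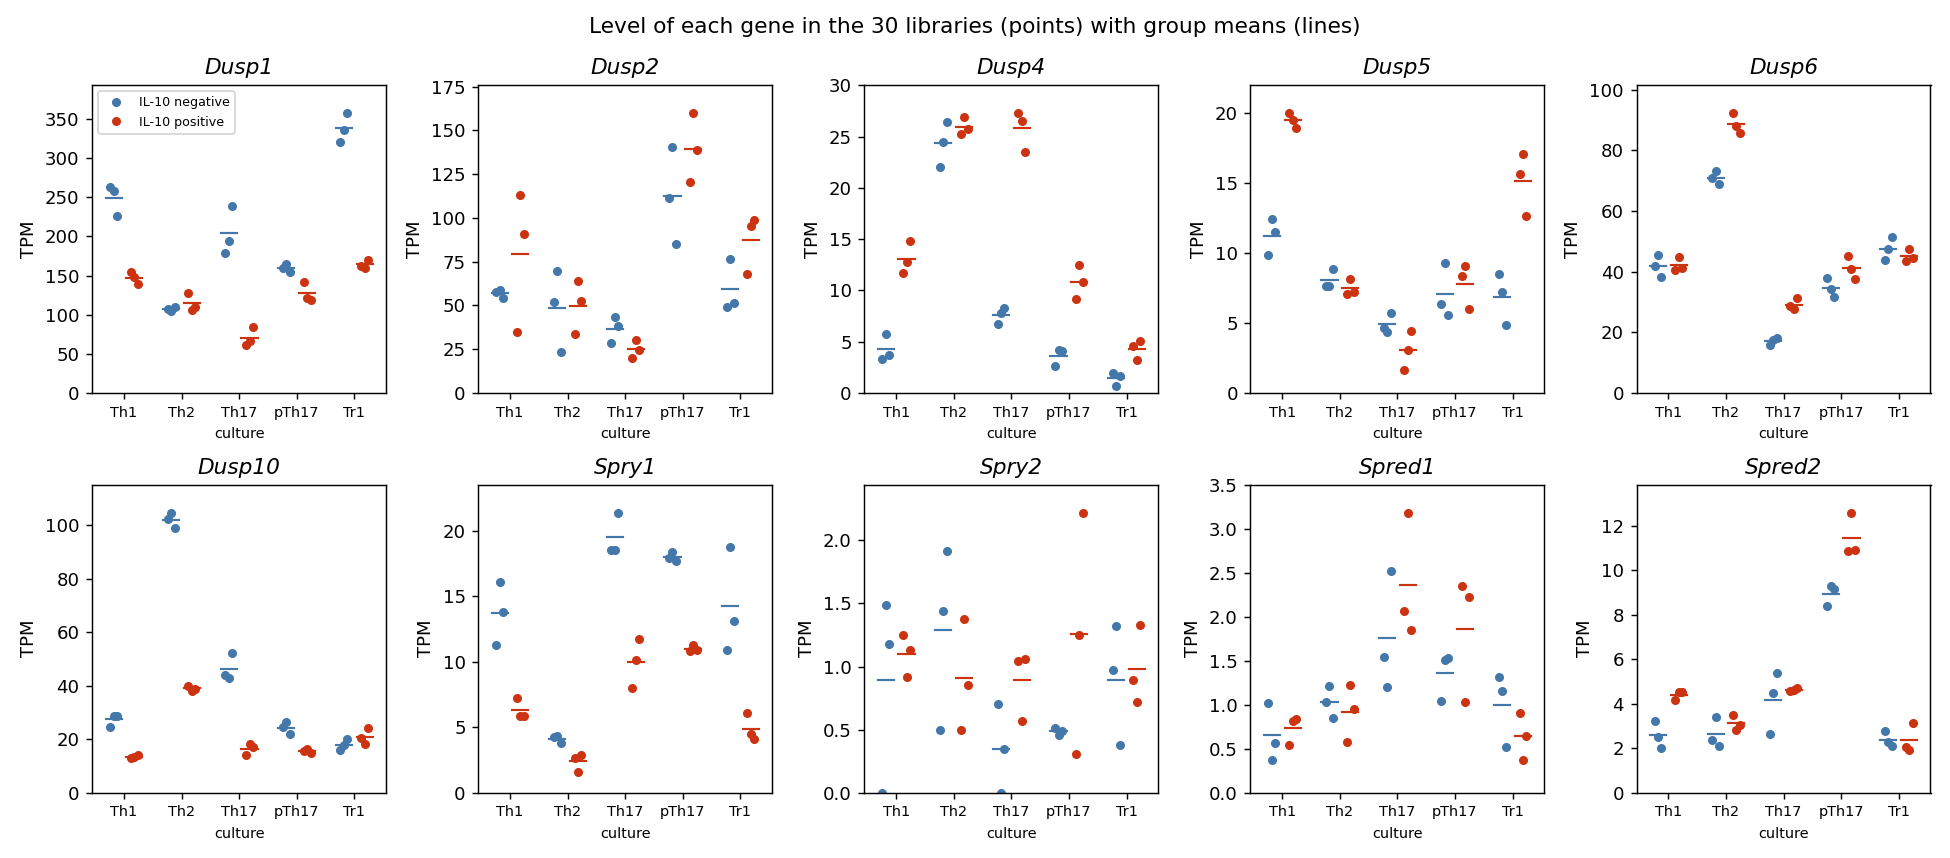
Each panel gives TPM (y axis, from 0) for 1 gene in the 5 cultures, with 3 libraries per group as points and the group mean as a line. Blue points (IL-10 negative) lie above red ones (IL-10 positive) for Spry1 in every culture, and Dusp4 shows the opposite order everywhere but in Th2.

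Dusp4, an inducible nuclear phosphatase of ERK and JNK, was raised in IL-10 positive cells of every culture except Th2. In Th17 cells the negative libraries held 6.71, 7.76 and 8.23 TPM and the positive ones 27.3, 26.5 and 23.5 TPM. In Th1 cells the values were 3.26, 5.78 and 3.73 against 11.65, 12.8 and 14.8 TPM. Both were separated without overlap, by 1.92 ± 0.17 (edgeR adjusted p = 1.83e-12) and 1.64 ± 0.19 (3.26e-09).

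In pTh17 cells Dusp4 stood at 2.67, 4.15 and 4.06 TPM in negative and 9.15, 12.5 and 10.8 TPM in positive libraries. Tr1 cells had the lowest levels, 1.98, 0.64 and 1.62 TPM in negative and 4.53, 3.2 and 5.02 TPM in positive libraries. Neither pair overlapped, at 1.497 ± 0.19 (edgeR adjusted p = 1.56e-07) and 1.62 ± 0.32 (1.19e-04). Th2 cells were high in both compartments, with 22.1, 24.5 and 26.4 TPM against 25.3, 26.9 and 25.7 TPM. These overlapped, and the difference was 0.09 ± 0.13 (edgeR adjusted p = 0.716).

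Calls that were higher in at least 4 of the 5 cultures were made for 6.63% of all genes tested. The Dusp4 difference depended on the culture (edgeR adjusted p = 9.48e-09 for equality). Against the mean of the other 4, it was -1.58 ± 0.18 in Th2 (adjusted p = 3.84e-09) and 0.71 ± 0.21 in Th17 (0.00521). The 3 highest groups, both Th2 compartments and Th17 IL-10 positive cells, overlapped one another and stood clear of the rest, and Tr1 IL-10 negative cells were lowest and clear of the next. The nearest genes over the 10 groups were Mis12 (r = 0.99), of the kinetochore, and Ormdl2 (r = 0.98).

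Dusp5, a nuclear phosphatase specific for ERK, was called higher in IL-10 positive cells of Th1 and Tr1. Th1 negative libraries held 9.82, 12.4 and 11.5 TPM and positive ones 19.97, 19.5 and 18.9 TPM. Tr1 negative libraries held 8.47, 7.2 and 4.82 TPM and positive ones 15.6, 17.04 and 12.65 TPM. These compartments were apart, by 0.82 ± 0.21 (edgeR adjusted p = 0.00187) and 1.26 ± 0.26 (1.95e-04).

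In Th17 cells Dusp5 was at 4.66, 4.35 and 5.69 TPM in negative and 1.62, 3.08 and 4.4 TPM in positive libraries, which overlapped. Th2 libraries lay between 7.04 and 8.85 TPM and pTh17 libraries between 5.55 and 9.27 TPM, with the compartments intermixed. The differences in these cultures were -0.54 ± 0.32 in Th17 (edgeR adjusted p = 0.144), -0.12 ± 0.22 in Th2 (0.773) and 0.09 ± 0.25 in pTh17 (0.862). Without Th17 IL-10 positive replicate 12 the Th17 difference was -0.88 and was called (adjusted p = 0.0354), and limma on log2(TPM + 1) called it with all libraries (-0.60, adjusted p = 0.0144). Against the mean of the other 4 cultures it stood at -1.05 ± 0.34 (edgeR adjusted p = 0.0107, where 46.5% of all genes were called), a call lost without Th17 IL-10 negative replicate 12 (0.0539) or positive replicate 10 (0.0691). Equality over cultures was refused by the test (edgeR adjusted p = 4.62e-04), and the Tr1 difference exceeded the mean of the other 4 by 1.19 ± 0.29 (0.00219).

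Th1 IL-10 positive cells had the highest Dusp5 level, followed by Tr1 IL-10 positive and Th1 IL-10 negative cells, each clear of its neighbours, and the other 7 groups overlapped in a chain. Htatip2 (r = 0.97) and Eif2ak3 (r = 0.97), the gene of the endoplasmic reticulum stress kinase PERK, had the most similar pattern over the 10 groups. The summed CPM of the NK cell, CD8 T cell and myeloid marker lists was also higher in IL-10 positive cells of the 2 cultures in which Dusp5 was raised. For NK cells, summed CPM of the 5 markers was 82.0 to 85.6 in Th1 positive against 7.95 to 8.51 in negative libraries, and 60.1 to 69.1 in Tr1 positive against 5.69 to 6.50 in negative libraries. Of the 3 markers tested, 2 were called higher in Th1 and 1 in Tr1. In the cultures where Dusp5 was not called, the NK cell sum was higher in pTh17 and Th17 and lower in Th2. It was 3.56 to 5.58 against 0.260 to 1.53 CPM in pTh17, with 2 of 3 called higher. Th17 had 2.24 to 3.18 against 1.06 to 1.39 CPM, with 1 called higher and 1 lower. Th2 had 0.716 to 1.73 against 1.85 to 3.40 CPM, with 0 called higher and 1 lower. Ncr1 was at 0 in all Th1 positive libraries, and Klre1 in all Th1 negative, Tr1 negative and Tr1 positive libraries. Both CD8 T cell markers were called higher in Th1 (summed 30.3 to 36.5 against 19.96 to 27.6 CPM) and Tr1 (42.7 to 51.4 against 23.7 to 27.3 CPM), and also in Th2 (17.01 to 18.8 against 9.41 to 12.2 CPM). Of these CD8 markers, 0 were called in Th17 (6.27 to 9.80 against 9.44 to 12.6 CPM) and pTh17 (19.6 to 22.5 against 21.6 to 24.6 CPM). Of the 6 myeloid markers tested, 3 were called higher in Th1 and 2 in Tr1, where the 8 listed summed to 19.0 to 20.5 against 5.08 to 6.81 CPM. In pTh17, 4 were called higher (25.2 to 31.8 against 11.4 to 13.4 CPM). Th17 had 1 called higher and 1 lower (1.55 to 4.95 against 3.25 to 4.56 CPM). Th2 had 0 called (1.61 to 2.84 against 1.61 to 2.62 CPM). Of the myeloid markers, Lyz2 was at 0 in all Tr1 positive and pTh17 negative libraries and Itgax in all Tr1 negative libraries. Whether these transcripts came from other cell types, and their part in the Dusp5 difference, was not tested.

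Dusp6, the cytoplasmic ERK phosphatase often used as a readout of ERK activity, was raised in IL-10 positive cells of Th17 and Th2. Th17 negative libraries held 15.9, 17.6 and 18.05 TPM and positive ones 28.7, 27.5 and 31.3 TPM. Th2 negative libraries held 70.8, 73.3 and 68.8 TPM and positive ones 92.4, 88.05 and 85.8 TPM. Both were without overlap, at 0.91 ± 0.10 (edgeR adjusted p = 1.30e-09) and 0.32 ± 0.08 (0.00261).

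In Th1 cells Dusp6 was at 41.9, 45.3 and 38.3 TPM in negative and 40.5, 44.8 and 41.35 TPM in positive libraries. In Tr1 cells it was at 43.8, 47.6 and 51.55 against 43.7, 47.4 and 44.6 TPM. In pTh17 cells it was at 37.9, 34.25 and 31.7 against 45.3, 41.0 and 37.5 TPM. The compartments overlapped in all 3, and the differences were 0.05 ± 0.09 in Th1 (edgeR adjusted p = 0.705), -0.00 ± 0.09 in Tr1 (0.979) and 0.19 ± 0.09 in pTh17 (0.158). The Tr1 sign was positive under 3 alternatives, and limma on log2 TPM called pTh17 (0.25, adjusted p = 0.0362).

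The Dusp6 difference depended on the culture (edgeR adjusted p = 3.98e-06 for equality). In the contrast added after the data had been seen, it exceeded the mean of the other 4 by 0.77 ± 0.11 in Th17 (4.57e-07). That contrast was also called in Th1 (-0.31, edgeR adjusted p = 0.0239) and Tr1 (-0.37, 0.00826). The Th1 call was lost in 5 of the 30 fits that each left out 1 library. With all libraries it was also lost with no filter on low counts (-0.22, 0.221) and with median-of-ratios size factors (0.0535). The Tr1 call was lost without Tr1 IL-10 negative replicate 18 (0.0971). The order of groups ran from Th2 IL-10 positive and then Th2 IL-10 negative cells, each clear of the next, through a middle run of 6 overlapping groups, to Th17 IL-10 positive and then Th17 IL-10 negative cells, again each clear. The nearest genes over the 10 groups were Ulbp1 (r = 0.93) and Nfu1 (r = 0.92). Dusp1 and Dusp6, both targets of ERK signalling in many cells, moved in opposite directions in Th17, where Dusp1 differed by -1.39 ± 0.10 and Dusp6 by 0.91 ± 0.10, and their r over the 10 groups was 0.05.

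Dusp2, a nuclear phosphatase that lymphocytes induce on activation, was not called between compartments in any culture. Th1 negative libraries held 57.7, 59.0 and 54.3 TPM and positive ones 34.6, 113 and 90.9 TPM. Th2 negative libraries held 51.7, 69.6 and 23.5 TPM and positive ones 33.6, 63.85 and 52.3 TPM. In both cultures the libraries of 1 group differed among themselves more than the group means did.

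Tr1 negative libraries held 49.3, 76.6 and 51.6 TPM and positive ones 68.1, 95.4 and 98.5 TPM. pTh17 negative libraries held 111, 141 and 84.85 TPM and positive ones 120.5, 160 and 139 TPM. Th17 negative libraries held 28.3, 43.5 and 38.3 TPM and positive ones 19.8, 30.3 and 24.5 TPM. All 5 pairs overlapped, and the edgeR adjusted p ran from 0.0678 in Tr1, with a difference of 0.66 ± 0.28, to 0.890 in Th2. Without Th1 IL-10 positive replicate 4 the Th1 difference was 0.86 and was called (adjusted p = 0.00361), and Dusp2 was called in the mean over cultures (0.0176), where the value with all libraries was 0.22 ± 0.12 (0.134). The Tr1 difference was called without Th1 IL-10 positive replicate 4 (0.0260), Th2 negative replicate 9 (0.0358), Tr1 negative replicate 17 (0.0473) or Tr1 positive replicate 16 (0.0325), and the mean over cultures also without Th2 negative replicate 8 (0.0402). The test of equality over cultures (0.165) passed without Th1 positive replicate 4 (0.0162) or Th2 negative replicate 9 (0.0374). Fits of the 6 libraries of a culture called Dusp2 in Th17 (0.0226) and Tr1 (0.00394). With no filter on low counts Dusp2 was called in Th1 (1.00e-07), Th17 (0.00344), Tr1 (1.67e-06) and the mean over cultures (0.21, 2.69e-05), and the test of equality passed (1.12e-09).

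The spread of Dusp2 among replicate libraries was large for its level, and so was that of Dusp1. The coefficient of variation of Dusp2 within a group had a median of 21.1% over the 10 groups. The median was 6.81% for the 3588 genes of like level, and Dusp2 stood at the 99.5th percentile of them. For Dusp1 it was 9.86%, against 5.03% for 1620 genes of like level, at percentile 96.2. The other genes of the set stood between percentile 17.4 (Dusp5) and percentile 74.1 (Spry1). The deviations of Dusp2 from its group means ran with those of Srsf11, an RNA splicing gene, with r = 0.96 over 30 libraries. Ggnbp2 followed at 0.93 and Ier2, an early gene, at 0.89, whereas Fos had an r of -0.22 and Dusp1 of -0.29. Srsf11 itself was at 42.35 TPM in Th1 IL-10 positive replicate 4, the library with the low Dusp2, and at 63.1 and 58.9 TPM in the other two. Srsf11 and Ggnbp2 were chosen after their values had been seen, the coefficients describe the libraries without a test, and what moved these genes together was not tested.

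**Figure D4:**
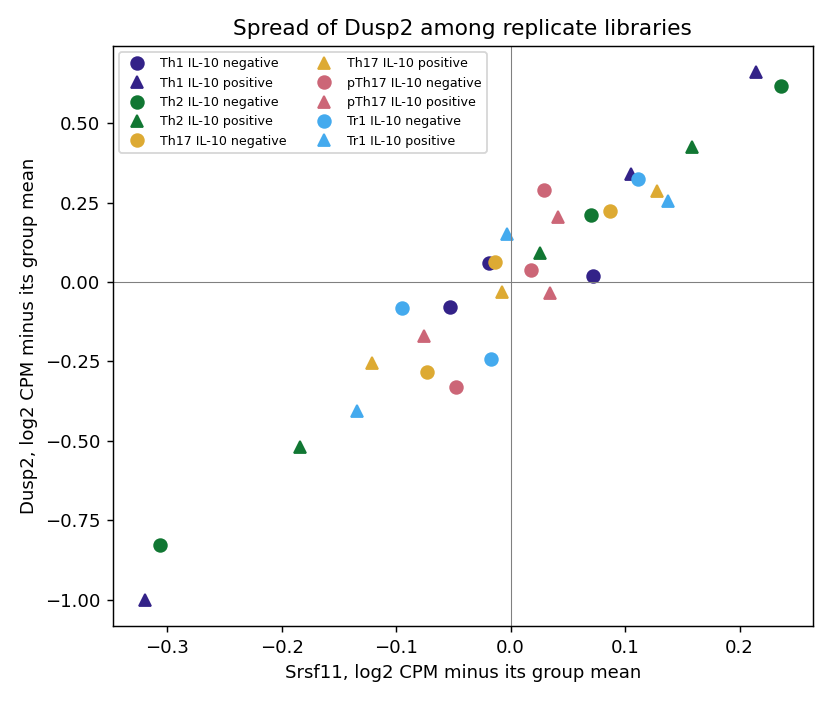
Each point is 1 of 30 libraries, with the log2 CPM of Srsf11 (x axis) and Dusp2 (y axis) minus the mean of its group, colour for culture and shape for compartment. The points rise from Th1 IL-10 positive replicate 4 at lower left, the library lowest against its group mean in Dusp2, to replicate 5 of the same group at upper right, 0.66 above the mean (r = 0.96).

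Between cultures, Dusp2 was highest in pTh17 and lowest in Th17 cells in both compartments, although each group overlapped its neighbour in rank. The nearest genes over the 10 groups were Srgap3 (r = 0.95) and Pou2f2 (r = 0.94), which encodes the B cell and lymphocyte transcription factor OCT2. The summed CPM of the 11 B cell markers was also highest in pTh17, at 111 to 122 in negative and 234 to 315 in positive libraries. It was 6.06 to 64.2 in all groups of the other 4 cultures. Against Th17, all 8 B cell markers tested were called higher in pTh17 within IL-10 positive cells (27.8% of all genes). Within IL-10 negative cells the members were mixed, with 2 of 8 called higher and 1 lower (31.1% and 28.9% of all genes). Their log2 differences there ran from -2.24 to 6.03. Between the pTh17 compartments, all 8 B cell markers were called higher in IL-10 positive cells. Blk was at 0 in the pTh17 negative libraries and none was at 0 in the positive ones. Their part in the Dusp2 level, or in the 4 calls between the pTh17 compartments given above, was not tested.

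Spred2, an inhibitor of the Ras to RAF step, was raised in Th1 IL-10 positive cells. Th1 negative libraries held 3.21, 2.52 and 2.03 TPM and positive ones 4.15, 4.54 and 4.54 TPM, without overlap. That difference was 0.83 ± 0.23 (edgeR adjusted p = 0.00275). In the same comparison the 8 myeloid markers summed to 71.2 to 81.7 CPM in positive against 17.2 to 24.5 CPM in negative libraries. Of the 6 tested, 3 were called higher and 0 lower, with log2 differences from -0.30 to 3.98. None of the 8 was at 0 in either group. Summed CPM of the other marker lists was also higher in Th1 positive libraries. It was 82.0 to 85.6 against 7.95 to 8.51 for NK cells and 45.4 to 55.8 against 15.5 to 20.3 for B cells. For CD8 T cells it was 30.3 to 36.5 against 19.96 to 27.6. The part of any of these transcripts in the Spred2 difference was not tested.

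In pTh17 cells Spred2 stood at 8.38, 9.28 and 9.16 TPM in negative and 10.9, 12.6 and 10.9 TPM in positive libraries, the highest levels of any culture. These compartments did not overlap in TPM, but the difference of 0.28 ± 0.17 was not called (edgeR adjusted p = 0.280). The summed B cell markers were also highest in pTh17, as given above, and their part in the Spred2 level was not tested. Th2, Th17 and Tr1 libraries lay between 1.92 and 5.39 TPM, without a call. Over the 5 cultures Spred2 was higher in IL-10 positive cells by 0.35 ± 0.10 (edgeR adjusted p = 0.00291), and the test of equality did not pass (0.301). Avpi1 (r = 0.97) and Tgm1 (r = 0.96) had the most similar pattern.

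Spry2 and Spred1, the least abundant of the genes, were not called between compartments in any culture. Spry2 ran from 0 to 2.22 TPM and was listed at 0 in 1 Th1 and 1 Th17 IL-10 negative library, and a count of 0 leaves room for up to 3 reads. Its difference in the mean over cultures was 0.54 ± 0.32 (edgeR adjusted p = 0.146), and with SEs of 0.56 to 0.84 in single cultures a difference of that size was not detectable at this depth. Spred1 ran from 0.37 to 3.19 TPM, with its highest group means in Th17 and pTh17 IL-10 positive cells, 2.37 and 1.87 TPM, and every neighbour in its order overlapped. Its mean difference was 0.11 ± 0.20 (edgeR adjusted p = 0.670).

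In the mean over the 5 cultures, 7 of the 10 genes were called, 4 higher and 3 lower in IL-10 positive cells, where 57.8% of all genes tested were called (29.6% higher, 28.2% lower). Dusp4 had the largest rise, 1.35 ± 0.09 (edgeR adjusted p = 2.38e-15), followed by Spred2, Dusp5 at 0.30 ± 0.11 (0.0227) and Dusp6 at 0.29 ± 0.04 (1.11e-07). The call for Dusp5 was lost without Th17 IL-10 positive replicate 12 (0.0874) and without the filter on low counts (0.0577). Spry1, Dusp10 at -0.83 ± 0.05 and Dusp1 at -0.68 ± 0.04 were lower.

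The cultures were then compared within a compartment. Among IL-10 positive cells 9 of the 10 genes differed over the 5 cultures, all but Spry2 (92.2% of all genes tested), and among IL-10 negative cells 8 did, all but Spry2 and Spred1 (88.2%). Spry2 missed the threshold in IL-10 negative cells (edgeR adjusted p = 0.0543) and passed it with DESeq2 (0.0412), with no filter on low counts (0.0290) and in 5 of the 30 fits that each left out 1 library. These were the fits without Th1 negative replicate 4 (0.0178), Th2 negative replicate 7 (0.0192), Th17 negative replicate 10 (0.0347), pTh17 positive replicate 13 (0.0407) or pTh17 positive replicate 15 (0.0496). Spred1 (edgeR adjusted p = 0.159) passed with limma on log2(TPM + 1) (0.0398).

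The 2 Th17 conditions differed in several genes of the set, phosphatase genes and Spred2 among them. In both compartments the share of the set that was called was close to that of all genes tested. These calls are therefore not read as particular to the set. Among IL-10 positive cells, 6 genes were called between pTh17 and Th17, 5 higher and 1 lower in pTh17, where 56.7% of all genes were called (27.8% higher, 28.9% lower). Dusp2 had the largest difference, 2.66 ± 0.28 (edgeR adjusted p = 2.14e-10), its 3 pTh17 libraries of 120.5 to 160 TPM lying above the 3 Th17 libraries of 19.8 to 30.3 TPM. Dusp5 rose by 1.53 ± 0.27 (9.63e-06), Spred2 by 1.47 ± 0.18 (7.37e-09), Dusp1 by 1.03 ± 0.10 (3.47e-11) and Dusp6 by 0.68 ± 0.09 (4.31e-08). Dusp4 was lower in pTh17, at -1.09 ± 0.15 (edgeR adjusted p = 9.94e-08).

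Among IL-10 negative cells, 6 genes were also called, 4 higher and 2 lower in pTh17 (60% of all genes, 31.1% and 28.9%). Dusp2 at 2.00 ± 0.29 (edgeR adjusted p = 1.66e-07), Spred2 at 1.49 ± 0.20 (4.49e-08), Dusp6 at 1.40 ± 0.10 (1.07e-14) and Dusp5 at 0.90 ± 0.28 (0.00627) were higher. Dusp10 at -0.54 ± 0.10 (1.53e-05) and Dusp4 at -0.67 ± 0.21 (0.00726) were lower. The Dusp5 call was lost without pTh17 negative replicate 14 (0.0509) and with limma (0.0705), and the Dusp4 call without pTh17 negative replicate 13 (0.0678). Dusp1 showed 0.04 ± 0.10 (edgeR adjusted p = 0.733) on TMM-scaled counts and -0.34 (adjusted p = 0.00366) by limma on log2 TPM, where Th17 levels stand higher, so its direction between these 2 groups depends on the scale.

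**Figure D5:**
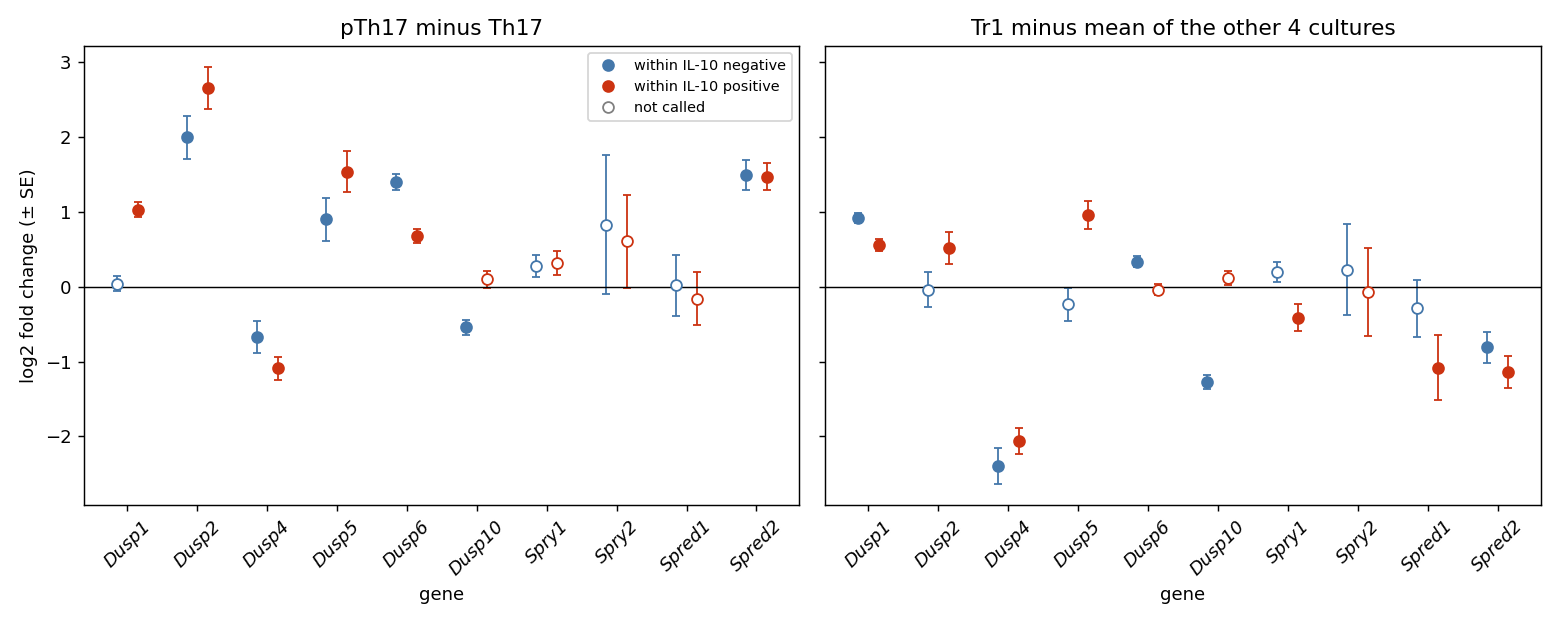
Points give log2 fold changes with SE bars for each gene (x axis) within IL-10 negative (blue) and positive (red) cells, pTh17 minus Th17 at left and Tr1 minus the mean of the other 4 cultures at right; open points are not called by edgeR. Dusp2 stands highest at left, at 2.66 in positive cells, and Dusp4 lowest at right, at -2.39 in negative cells.

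Tr1 cells, made with IL-27, differed from the mean of the other 4 cultures in 7 of the 10 genes within IL-10 positive cells, 3 higher and 4 lower (65.6% of all genes called, 33.3% and 32.3%). Dusp4 was lower by far, at -2.06 ± 0.18 (edgeR adjusted p = 6.38e-13), and Spred2 was lower at -1.14 ± 0.21 (1.04e-05). Dusp5 at 0.96 ± 0.19 (3.00e-05) and Dusp1 at 0.56 ± 0.08 (7.77e-08) were higher. The remaining 3 calls, Dusp2 at 0.52 ± 0.22 (edgeR adjusted p = 0.0336), Spry1 at -0.41 ± 0.18 (0.0429) and Spred1 at -1.08 ± 0.43 (0.0277), were each lost without Tr1 IL-10 positive replicate 17 (0.141, 0.148 and 0.167) or replicate 18 (0.222, 0.156 and 0.0564), which left 4. With all libraries, DESeq2 lost Dusp2 (0.0802) and Spry1 (0.0605), limma lost Dusp2 (0.0723), and median-of-ratios size factors lost Spry1 (0.0587). Dusp2 was also lost without Th2 positive replicate 7 (0.0564), Th17 positive replicate 10 (0.0544) or pTh17 positive replicate 13 (0.0507), and Spry1 without Th2 positive replicate 7 (0.0522) or 9 (0.0566) or Th17 positive replicate 12 (0.0502).

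Within IL-10 negative cells 5 genes were called in Tr1 against the other 4 cultures, 2 higher and 3 lower (57.7% of all genes, 27.4% and 30.2%). Dusp4 was at -2.39 ± 0.24 (edgeR adjusted p = 4.21e-11), Dusp10 at -1.28 ± 0.09 (5.80e-15) and Spred2 at -0.81 ± 0.21 (9.31e-04). Dusp1 was at 0.92 ± 0.07 (edgeR adjusted p = 4.73e-14) and Dusp6 at 0.33 ± 0.07 (1.54e-04), the last falling to 0.21 without Tr1 negative replicate 18 (0.0352). These differences between cultures, and the differences between compartments above, share libraries and are not independent of one another.

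The other genes of the pathway were taken from fixed lists, each described by its counts in the mean over the 5 cultures, where the median of all genes tested was -0.00 and 57.8% of them were called (29.6% higher, 28.2% lower). These shares apply to each count below. Of 12 other Dusp genes tested, 6 were called higher and 2 lower in IL-10 positive cells, with a median log2 difference of 0.40. The 3 most abundant were Dusp11, an RNA phosphatase, at -0.14 ± 0.03 (edgeR adjusted p = 9.50e-05), Dusp22 at 0.58 ± 0.10 (2.19e-06) and Dusp19 at 0.31 ± 0.10 (0.00801). Of the 3 remaining Sprouty and Spred genes, Spred3 was called, at 0.67 ± 0.18 (edgeR adjusted p = 0.00139), while Spry3 at -0.27 ± 0.41 (0.607) and Spry4 at -0.57 ± 0.39 (0.221) were not.

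Of 16 genes of the ERK cascade tested, 4 were called higher and 2 lower, with a median of 0.01. Rasgrp1, the exchange factor that loads Ras after T cell receptor signals, was lower at -0.60 ± 0.04 (edgeR adjusted p = 5.80e-15), Nras was higher at 0.18 ± 0.03 (4.08e-07), and Map2k1, which encodes MEK1, was at 0.01 ± 0.03 (0.758). Of 5 Ras GTPase activating proteins, which switch Ras off, 3 were called lower and 0 higher, with a median of -0.28. Rasal3 was at -0.28 ± 0.02 (edgeR adjusted p = 9.06e-13) and Rasa3 at -0.43 ± 0.03 (1.63e-16), while Rasa2 was at -0.08 ± 0.04 (0.102).

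Of 9 p38 and JNK kinase genes tested, 1 was called higher and 5 lower, with a median of -0.24. The one called higher was Map2k3, a kinase that activates p38, at 0.62 ± 0.04 (edgeR adjusted p = 3.48e-17). Mapk11, encoding p38 beta, was lower at -0.62 ± 0.05 (6.39e-14), and Mapk14, encoding p38 alpha, was at 0.06 ± 0.05 (0.349). Of 12 T cell activation genes, 6 were called higher and 4 lower, with a median of -0.03. Il2ra, the alpha chain of the IL-2 receptor, was higher at 1.49 ± 0.03 (edgeR adjusted p = 2.14e-31), as were Tnfrsf4, encoding OX40, at 1.13 ± 0.04 (5.49e-26) and Icos, a costimulatory receptor, at 0.65 ± 0.03 (1.63e-22).

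By RefSeq on GRCm38.p6, the genes lie on 9 chromosomes, with only Dusp2 (chr2:127336159-127338377) and Spred1 (chr2:117121071-117182279) on the same one. The genes the results turn on most lie at chr17:26505591-26508472 (Dusp1), chr8:34807610-34819894 (Dusp4), chr1:184034381-184075636 (Dusp10) and chr3:37639947-37644599 (Spry1). Spans differ widely, from 2219 bases for Dusp2 and 2882 for Dusp1 to 99585 for Spred2.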

How the data were processed

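Mouse CD4 T cells from 5 cultures, sorted by an IL-10 reporter, gave 30 libraries in 10 groups of 3. The sample titles gave each library its group and number, because the labels' protocols give Thy1.1 positive for both compartments. Libraries followed a SMART-Seq2 adaptation from polyA RNA, per the labels' protocols, with no molecular identifiers and no strand stated, so reads of overlapping genes cannot be told apart. The submitters' processing notes name RSEM and mm10. The aligner and the RSEM version are not given in the sources used.

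Per the file headers, the authors deposited RSEM's expected counts per gene, estimates that are often fractional. Deposited TPM values were used here for levels. Deposited FPKM, and gene and effective lengths, other deposited measures, were not used.

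Expected counts were rounded. Genes were filtered by filterByExpr, libraries scaled by TMM and 1 fit of 30 libraries with a mean per group tested by edgeR 4.0.16 (quasi-likelihood, two-sided, R 4.3.3). TPM relates a gene to all transcripts of a library and TMM to most genes, so the 2 scales can order groups differently. Log2 CPM used a prior count of 2. Scripts were tested on simulated data. Replicates differed by more than sampling noise.

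Members, lists and tests were chosen with earlier results of these data known. The named genes were the 10 members, the 3 genes of each pathway list with the highest mean TPM, and the 2 genes most correlated with each member over the 10 group means among genes with a mean of at least 5 CPM. Whether shared replicate numbers pair libraries was checked and left undecided, and the main fit did not pair them. Alternatives were DESeq2 1.42.0, median-of-ratios size factors, no filter, limma 3.58.1 on log2(TPM + 1), a replicate block, fits of 6 libraries and each library left out in turn. Promoters came from RefSeq tables.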

Additional observations from a re-analysis of the deposited data

Results flagged for a closer look

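For 5 genes the difference between IL-10 positive and negative cells was not the same in all cultures, by edgeR's test of equality with Benjamini-Hochberg adjustment over all genes tested. The adjusted p was 1.72e-10 for Dusp1, whose log2 difference ran from -1.39 in Th17 to 0.09 in Th2. It was 3.18e-11 for Dusp10, from -1.39 in Th2 to 0.29 in Tr1. It was 9.48e-09 for Dusp4, from 0.09 in Th2 to 1.92 in Th17. It was 3.98e-06 for Dusp6, from -0.00 in Tr1 to 0.91 in Th17, and 4.62e-04 for Dusp5, from -0.54 in Th17 to 1.26 in Tr1. Of all genes tested, 60.7% passed the same test. Dusp2 (0.165) passed it with no filter on low counts (1.12e-09).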

How the results depend on the processing

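Of the 53 called differences of the 10 genes, 51 kept their call with DESeq2, 52 with median-of-ratios size factors, 52 with no filter on low counts and 51 with limma on log2(TPM + 1), and 0 reversed under these settings. All 22 called differences between compartments kept their call in fits of the 6 libraries of a culture. With 1 library left out, 1574 of 1590 were kept and 0 reversed. Each call was refitted without each of the 30 libraries, also those of groups outside its contrast. Leaving out such a library acts on a call only through the shared fit, so this share overstates the stability. Near the threshold it could still matter. Dusp2 in Tr1, not called with all libraries, was called without Th1 IL-10 positive replicate 4 (edgeR adjusted p = 0.0260). The contrasts added after the data had been seen are not among the 53. With 1 library left out, the count of genes called in Tr1 against the other IL-10 positive cultures ran from 4 to 7.

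A positive and a negative library of a culture share each replicate number, and whether this pairs them was left undecided. Of 15 such pairs, 0 had a correlation over 0.1 across all genes tested (range -0.05 to 0.05). In 7 a library correlated best with its own number. A correlation over all genes cannot exclude pairing, because the noise of single libraries can hide a shared part. With a replicate block, 29 of 29 called differences between compartments, in single cultures or their mean, were kept. The added contrast of Spry1 in Tr1 with the other cultures lost its call (edgeR adjusted p = 0.0746), and Dusp10 (0.30, edgeR adjusted p = 0.0336) and Dusp2 (0.66, 0.0263) were also called in Tr1. Dusp6 in Tr1 was 0.0029 under the block.

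Differences that changed sign were not called by edgeR on all libraries. Dusp6 in Tr1 was 0.015 with DESeq2 and 0.016 with median-of-ratios size factors, and Spred2 in Tr1 was -0.018 with limma and -0.0096 with no filter. With limma the mean differences of Map2k1 and Spry3 were -0.023 and 0.049. Between pTh17 and Th17, limma gave -0.062 for Dusp10 in positive cells, and -0.34, -0.20 and -0.11 for Dusp1, Spred1 and Spry1 in negative cells. Between Tr1 and the other cultures, Dusp10 in positive cells was -0.031 with no filter, and Dusp2 in negative cells 0.043 with limma. The cause was not tested.

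Leaving out 1 library at a time also turned the sign of uncalled differences. Between compartments the range was -0.017 to 0.098 for Dusp6, -0.030 to 0.69 for Spred1 and -0.23 to 0.74 for Spry2 in Th1. It was -0.24 to 0.41 for Dusp2, -0.20 to 0.0056 for Dusp5, -0.15 to 0.082 for Fos and -0.43 to 0.096 for Spred1 in Th2. It was -0.037 to 0.29 for Dusp5 in pTh17, and -0.072 to 0.11 for Dusp6, -0.23 to 0.23 for Spred2 and -0.10 to 0.66 for Spry2 in Tr1. In the mean over cultures it was -0.56 to 0.0061 for Spry3. Between pTh17 and Th17 positive cells it was -0.40 to 0.12 for Spred1 and -0.061 to 1.09 for Spry2. Between pTh17 and Th17 negative cells it was -0.0089 to 0.16 for Dusp1 and -0.21 to 0.36 for Spred1. Between Tr1 and the other positive cells it was -0.054 to 0.21 for Dusp10, -0.084 to 0.0071 for Dusp6 and -0.42 to 0.11 for Spry2. Between Tr1 and the other negative cells it was -0.22 to 0.062 for Dusp2, -0.55 to 0.037 for Spred1 and -0.14 to 0.62 for Spry2.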
